A study of Homo sapiens with 3 samples.

Results

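This report covers day 3 barcodes of a fibroblast-to-neuron induction series with the largest shares of UMIs in genes used in cell division. These barcodes were selected on measured values. A day 3 barcode entered the pool when it held at least 500 UMIs (unique molecular identifiers, 1 per captured RNA molecule), at least 300 genes, at most 20% UMIs of mitochondrially encoded genes, and 0 UMIs of RORB and NFIB. Members were chosen by the share of a barcode's UMIs in 7 gate genes (GTSE1, CDC25C, KIF2C, TROAP, ARHGAP11B, TOP2A and MKI67, summed). The top 8% of the pool with at least 2 such UMIs were taken, which gave 799 gated barcodes of 9988 in the pool, of 11454 kept at day 3 and of 37446 kept in the whole series. The other 9189 pool barcodes were the comparison.

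Single-cell RNA counts covered 3 libraries, 1 for each group, all labelled WT in genotype and reprogramming in treatment. BJ cells, an established line of human fibroblasts, made the day 0 library. FiN cells, labelled as induced neuron cells, made the day 3 and day 5 libraries. The protocol given for all libraries put the cells in a neuronal induction medium with 10 µM forskolin, an activator of adenylyl cyclase, then from day 2 in a maturation medium with 10 µM forskolin, which was withdrawn on day 5. The labels do not tell whether the day 0 cells had met forskolin. With 1 library a group and no labelled replicate culture, no test between conditions could be run, and barcodes are not replicates. Intervals below are exact Poisson or exact binomial 95% intervals and cover counting error only.

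A dividing cell copies its DNA in S phase and, after G2, condenses its chromosomes and separates them on the spindle in mitosis. Cyclin-dependent kinases with their cyclins drive these steps, kinetochore proteins tie chromosomes to spindle fibres, kinesin motors move them, and condensins compact them. Many genes of the late steps share promoter elements and are switched on together, while the DREAM complex holds them off in resting cells. Fibroblasts in culture divide, and cells that become neurons leave the cycle.

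Promoters of mitosis and S phase list genes are shown first, since many such genes are known for shared short elements. The CHR element (letters TTTGAA, read on both strands) is a known DREAM and B-MYB site, and E2F sites are known in S phase genes. Below are windows of 30 bases before the RefSeq start (build GRCh38.p14), with the matched letters in capitals. They are from 6 mitosis list genes that held a CHR in the 100 bases before the start. These genes are examples, and list genes not shown may hold a CHR there too.
ESPL1: cagccgcggataTTTGAAaggagggtctgg
CENPA: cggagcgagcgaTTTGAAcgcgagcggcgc
CKAP2L: tacaggcgcggcgTTTGAAgaaaaactgtc
BUB1B: gggaccgttaaaTTTGAAacttggcggcta
CDCA8: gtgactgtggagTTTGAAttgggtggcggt
CCNF: gggccgggtgcgTTTGAAaactggggtggg
These lie at chr12:53268256-53268285 (plus strand), chr2:26786026-26786055 (plus), chr2:112764610-112764639 (minus), chr15:40161034-40161063 (plus), chr1:37692481-37692510 (plus) and chr16:2429350-2429379 (plus). In 5 of these 6 the word ended 11 to 25 bases before the start, and in CCNF 79 bases before it. The gated barcodes held 75.4 CPM of ESPL1 (separase, which cuts cohesin) against 5.96 CPM in the others, and 41.96 against 4.602 CPM of CENPA, the centromere histone.

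The second set shows 4 S phase list genes that held an E2F word (TTTGGCGC, TTTCCCGC, TTTGCCGC or TTTCGCGC, both strands) in the same stretch. These too are examples, and genes with larger ratios than some of them may also hold such a word.
RFC3: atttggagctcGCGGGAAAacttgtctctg
HELLS: aggtatcgcgagatgacaggatTTTCCCGC
DTL: caatcagagagcgtgacgtcagTTTGGCGC
TYMS: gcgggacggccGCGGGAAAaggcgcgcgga
They lie at chr13:33818083-33818112, chr10:94545758-94545787, chr1:212035718-212035747 and chr18:657603-657632, all on the plus strand. Over the whole window of 250 bases before to 50 after the start, a CHR stood in 66 of 109 matched promoters of the mitosis lists (60.6%), in 1 of 39 of the S phase list (2.56%), in 839 of 8347 promoters of genes at 10 CPM or more (10.1%) and in 4229 of all 27305 (15.5%). An E2F word stood in 20 of 39 S phase promoters (51.3%), in 9 of 109 of the mitosis lists (8.26%), in 5.69% of the genes at 10 CPM or more and in 3.34% of all. A CCAAT box (letters CCAAT, both strands) stood in 66.1% of the mitosis list promoters and 37.3% of those at 10 CPM or more. A match is a run of letters, not a shown site. The promoter of C21orf58 held a CCAAT and an E2F word and no CHR in its window, and that of APOLD1 held a CHR and a CCAAT.

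The gate itself was mostly TOP2A, the DNA topoisomerase that untangles copied chromosomes. TOP2A gave 68.1% of the gate UMIs in the gated barcodes and was found in 96.6% of them, and 415 of 799 held no other gate gene. Levels are in CPM, the usual scaling of UMIs to a fixed total. The lowest gate share inside was 1831.5 CPM and the highest outside, among barcodes with 2 or more gate UMIs, was 1829 CPM. The 100 gated barcodes with the lowest shares held 11983 CPM (11448 to 12537) of the mitosis lists described below, and the 100 barcodes just outside, with 2 or more gate UMIs, held 10642 CPM (10157 to 11145). The gate genes are left out of every level and count that follows.

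The gated barcodes were shallower than the rest, with a median of 1092 UMIs against 1377. MALAT1, a nuclear RNA, took 17.8% of their UMIs against 22.8%, and mitochondrial genes 0.361% against 0.778%. The median mitochondrial share per barcode was closer, 0.287% against 0.356%. Of the 1466 kept barcodes left out for RORB or NFIB, 384 (26.2%) also passed the gate's share. The gated barcodes shared 7 barcode sequences with day 0 and 2 with day 5. A doublet caller (Scrublet) marked 2 of 11454 kept barcodes, a share too low to have worked, so doublets were not removed.

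Gated and other barcodes were compared as sums of UMIs, in CPM over all genes but the gate genes. A gene was called when the ratio was at least 2, the larger level at least 10 CPM and the intervals did not overlap, with levels under 3 UMIs set at 3 UMIs in the ratio. Of 10404 genes at 10 CPM or more, 713 were called higher (6.85%) and 128 lower (1.23%). The calls were 84.8% higher with total UMIs as the scale and 72.7% with TMM factors, which moved the median log2 ratio of all genes from 0.04 to -0.06. Of the 127 genes of 4 mitosis lists, 124 reached 10 CPM and 111 of these were called higher, none lower. Their median log2 ratio was 2.27, beside 0.04 over all genes at that level. Summed over the lists, the gated barcodes held 13953 CPM (13740 to 14169) and the others 4344 CPM (4311 to 4377), a ratio of 3.21. These lists sit close to the gate in function, and their higher levels describe the chosen barcodes and test nothing.

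**Figure D1:**
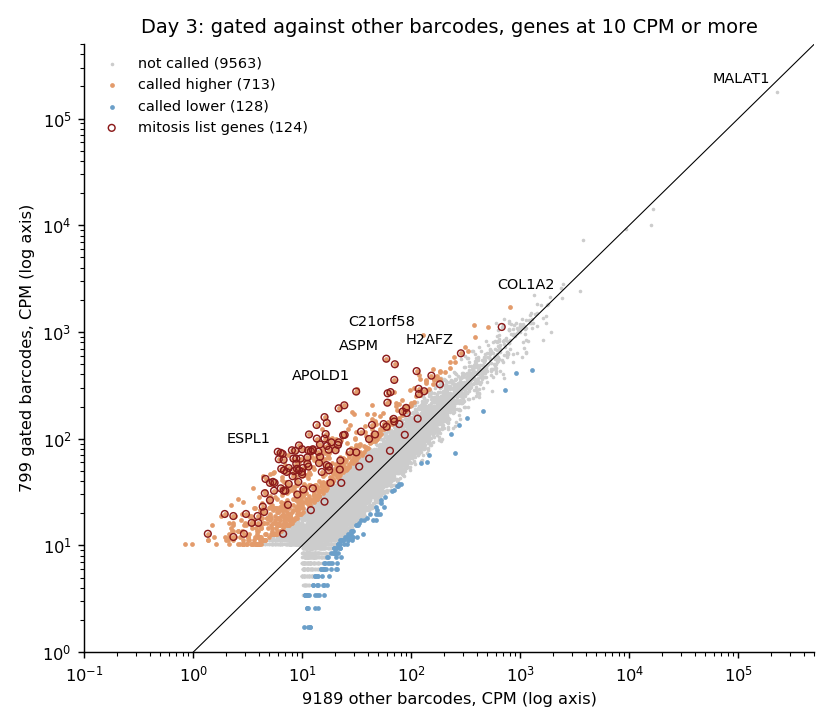
Each point is a gene at 10 CPM or more at day 3, with its level in the 9189 other barcodes (x axis, CPM, log scale) and in the 799 gated barcodes (y axis, CPM, log scale). The 713 genes called higher lie above the line of equal levels, the 128 called lower lie below it, and the ringed mitosis list genes lie above it.

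The 799 barcodes did not form 1 group. Clusters made from all genes but the gate genes (Leiden, resolution 0.5) put 412 of them (51.6%, interval 48.0% to 55.1%) in a cluster led by RORB, GNAO1 and SUV39H1, and 308 (38.5%, interval 35.2% to 42.0%) in a cluster led by APOLD1, MCM10 and FANCB. The RORB cluster held 10.1% of the other barcodes and the APOLD1 cluster 4.36%. The remaining 79 gated barcodes lay in 2 other clusters. The RORB cluster is the one that also held 1165 of the 1466 barcodes left out for RORB or NFIB. Besides these it held 926 ungated barcodes with 0 UMIs of both genes. Since the clusters were drawn from these same genes, differences between them describe the clusters and test nothing.

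The gate genes themselves differed between these clusters. In the RORB cluster TOP2A made 95.4% of the gate UMIs of the gated barcodes, and 364 of 412 held no other gate gene. In the APOLD1 cluster it made 50.8%, and 16 of 308 held no other gate gene. Depth differed as well, with medians of 935.5 UMIs in the RORB cluster and 1930 in the APOLD1 cluster, and MALAT1 took 8.71% and 23.5% of the UMIs. The part of depth and of nuclear RNA in these differences was not tested.

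Levels of genes of dividing cells differed between the gated barcodes of the 2 clusters. APOLD1, the 1 marker given for these cells that is not a gate gene, stood at 493 CPM in the gated barcodes of the APOLD1 cluster and at 2.46 CPM (1 UMI) in those of the RORB cluster. The ungated barcodes of all other clusters held 15.3 CPM. The APOLD1 cluster was picked out by APOLD1 as its leading gene, so this contrast was fixed by that choice and lends the label no support. BIRC5 (survivin, of the chromosomal passenger complex) stood at 82.2 CPM in the first and at 0 UMIs in the second, where 3 UMIs would be 7.37 CPM. Other mitosis genes went the other way, with 53 of 99 called higher and 1 lower in the RORB cluster's gated barcodes against all other barcodes. These barcodes are named here by their cluster, and whether they were cycling was not tested.

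Against all 9189 other barcodes, the gated barcodes of the APOLD1 cluster had 744 genes called higher (7.03% of those at 10 CPM or more) and 144 lower (1.36%). Of the mitosis lists 111 of 126 were higher and none lower. The gated barcodes of the RORB cluster had 1323 genes higher (12.9%) and 1263 lower (12.3%), and of the mitosis lists 53 of 99 higher and 1 lower. The clusters' higher genes overlapped in 99 symbols, 13.3% of the 743 symbols of the APOLD1 cluster and 7.48% of the 1323 of the RORB cluster. Of the mitosis list genes, 45 were higher in both, 40.5% of the first set and 84.9% of the second. Over all genes these overlaps lie near the shares called higher, 12.9% in the RORB cluster and 7.03% in the APOLD1 cluster. The mitosis overlaps stand beside 53 of 99 and 111 of 126 list genes called higher, so no shared programme is read from them. Both sets share their comparison barcodes.

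**Figure D2:**
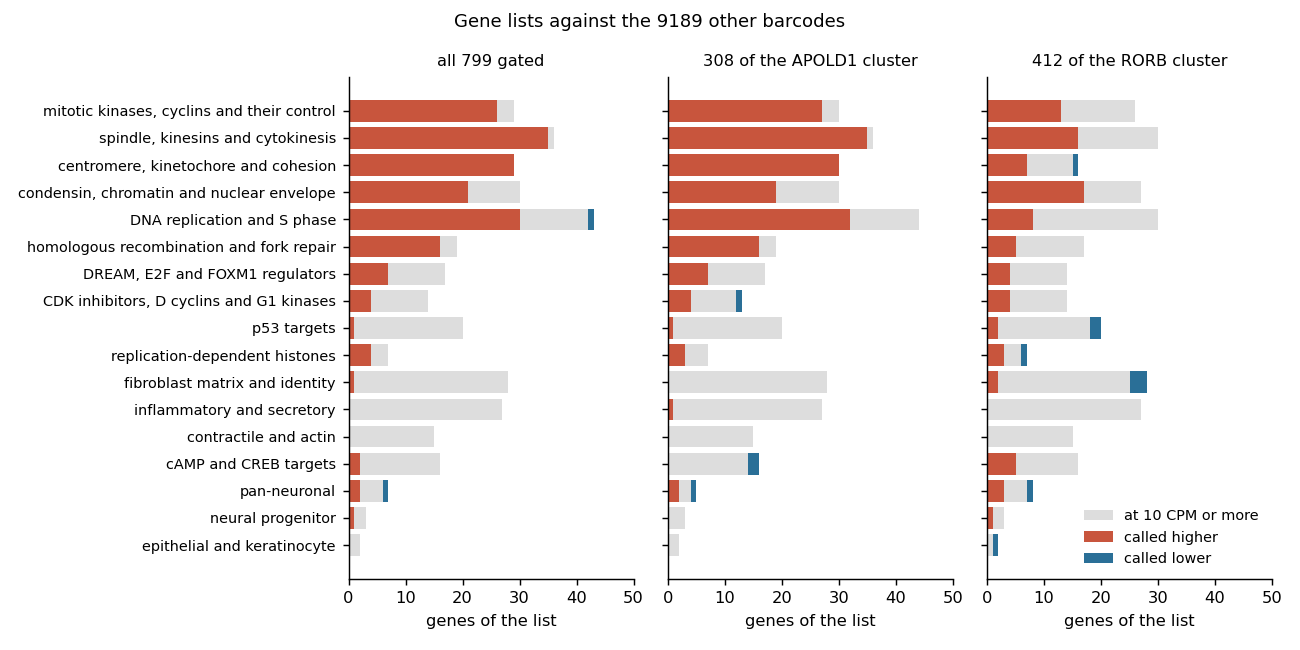
Bars count the genes of each list at 10 CPM or more (grey), called higher (red) and called lower (blue) against the 9189 other barcodes, for all gated barcodes and for those of each cluster. The spindle list has 35 of 36 genes higher in the APOLD1 cluster and 16 of 30 in the RORB cluster.

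Kinases and cyclins that drive mitosis were higher in 26 of 29 cases over all gated barcodes, with a median log2 ratio of 2.05. AURKB, the kinase that corrects chromosome attachment, stood at 134 CPM (114 to 157) against 13.5 CPM (11.8 to 15.5). It reached 209.9 CPM in the APOLD1 cluster's gated barcodes and 24.6 CPM in the RORB cluster's. CDK1, the main mitotic kinase, stood at 116 against 34.6 CPM, and here the clusters were closer, with 138 and 93.3 CPM. CCNB1, its cyclin partner, stood at 92.5 against 18.5 CPM, CCNA2 at 59.1 against 14.3 CPM, AURKA at 37.7 against 7.52 CPM and PLK1 at 29.97 against 9.01 CPM. BUB1B, of the spindle checkpoint, stood at 52.2 against 6.42 CPM. PLK4, which starts centriole copying, went the other way between clusters, with 145 CPM in the RORB cluster and 47.0 CPM in the APOLD1 cluster, and both values were above the 4.88 CPM of the ungated barcodes of other clusters.

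Spindle, kinesin and cytokinesis genes were higher in 35 of 36 cases, with a median log2 ratio of 2.68. ASPM, a spindle pole protein, stood at 562 CPM (520 to 606) against 59.0 CPM (55.3 to 63.0). Its levels were 882 CPM in the APOLD1 cluster and 108 CPM in the RORB cluster. KIF18B (a kinesin of microtubule ends) stood at 73.6 against 6.35 CPM, CEP55 and CIT (both of the last cut between daughter cells) at 71.9 against 6.61 and 109.6 against 11.5 CPM, and KIF20A at 63.4 against 6.74 CPM. In the RORB cluster KIF18B was at 4.91 CPM, inside the counting error of the 10.03 CPM of that cluster's ungated barcodes. KIF14 stood at 86.5 against 9.33 CPM, KIF20B at 277 against 31.2 CPM, NUSAP1 at 206 against 24.3 CPM and TPX2 at 140 against 16.8 CPM. CKAP2L stood at 77.1 against 8.62 CPM. The kinesin KIF4A, like PLK4, had its larger level in the RORB cluster, 90.8 against 35.2 CPM. ARHGAP11A stood at 122 against 15.2 CPM, but it is a near copy of the gate gene ARHGAP11B, so its reads may be shared with it.

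Centromere and kinetochore genes were higher in 29 of 29 cases over all gated barcodes. KNL1, the kinetochore scaffold, stood at 159 CPM (137 to 184) against 16.01 CPM (14.1 to 18.1), HJURP, which loads CENPA, at 77.9 against 8.04 CPM, and SGO1, which guards centromere cohesion, at 64.2 against 6.09 CPM. CENPE stood at 193 against 21.6 CPM and CENPF at 498 against 70.7 CPM. Within the RORB cluster 7 of 16 genes of this list were higher and 1 was lower. HJURP stood there at 7.37 CPM (3 UMIs), against 123 CPM in the APOLD1 cluster and 8.04 CPM in all ungated barcodes. CENPF was not called there, with 133 CPM against 70.7 CPM.

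Condensin, chromatin and nuclear envelope genes were higher in 21 of 30 cases, with a median log2 ratio of 1.32. In this list the RORB cluster had the larger sum, 6837 CPM (6586 to 7096), against 5164 CPM (4994 to 5337) in the APOLD1 cluster and 2064 CPM in the ungated barcodes of other clusters. The RORB cluster's ungated barcodes held 4498 CPM, and its RORB or NFIB positive ones 5720 CPM. Between its gated and ungated barcodes 3 of 27 genes of the list were called, all higher. SMC2, a condensin subunit, stood at 798 CPM in the gated barcodes of the RORB cluster and 117 CPM in those of the APOLD1 cluster. HMGB2, a chromatin protein of dividing and progenitor cells, stood at 739 and 273 CPM, H2AFZ (histone H2A.Z) at 1139 and 321 CPM and HMGB1 at 1711 and 778 CPM. SMC4, the partner of SMC2, did not follow it, with 287 and 282 CPM. HMGN2 was the reverse, with 172 CPM in the RORB cluster and 536 CPM in the APOLD1 cluster.

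**Figure D3:**
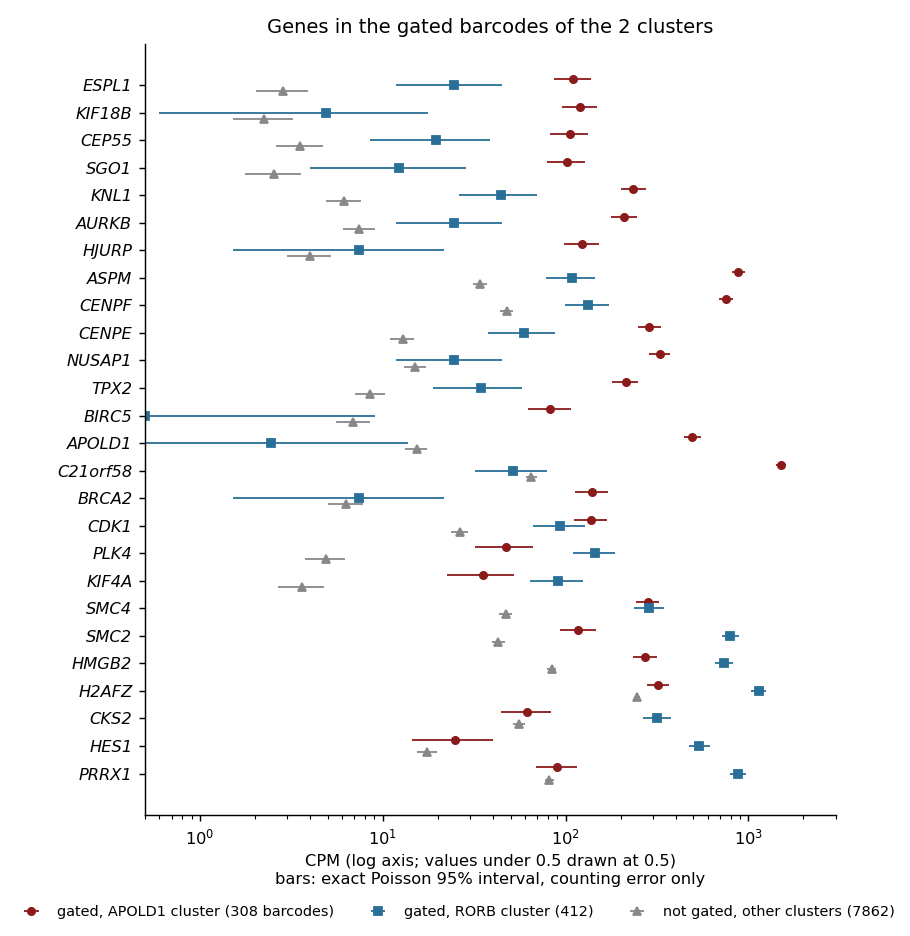
Levels (CPM, log axis) of 26 genes in the 308 gated barcodes of the APOLD1 cluster (circles), the 412 of the RORB cluster (squares) and the 7862 ungated barcodes of the other clusters (triangles), with Poisson intervals. From ESPL1 to BRCA2 the circles lie to the right, and from PLK4 to PRRX1, SMC4 aside, the squares do.

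Shares of barcodes with a UMI gave the same order. Each barcode was thinned to 1000 UMIs, which left out 18 shallower gated barcodes of the APOLD1 cluster, 263 of the RORB cluster and 1587 ungated barcodes of other clusters. ASPM was then found in 53.1% (interval 47.2% to 59.0%) of the first, 8.72% (4.73% to 14.5%) of the second and 3.30% (2.87% to 3.77%) of the third. Without thinning the shares were 71.8%, 8.50% and 5.10%, at median depths of 1930, 935.5 and 1409 UMIs. APOLD1 was found in 116 of 290 thinned barcodes of the APOLD1 cluster (40.0%), in 0 of 149 of the RORB cluster and in 1.40% of the ungated ones. H2AFZ was found in 27.6% (22.5% to 33.1%) of the first and 64.4% (56.2% to 72.1%) of the second, against 22.6% of the ungated barcodes. The H2AFZ interval in the APOLD1 cluster reached the ungated share, so no difference from it is read there.

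DNA replication and S phase genes were higher in 30 of 43 cases and lower in 1 (UNG, a DNA glycosylase, 5.99 against 15.4 CPM). Their summed level was 2288 CPM against 971 CPM. HELLS, a chromatin remodeller of S phase, stood at 266 against 60.8 CPM. CLSPN, which relays fork stalling, stood at 83.1 against 16.2 CPM, RFC3 of the clamp loader at 76.2 against 15.4 CPM, RRM2 of nucleotide supply at 65.1 against 16.3 CPM and MCM10 at 37.7 against 5.31 CPM. PCNA, the sliding clamp, was not called, with 130 CPM against 88.1 CPM. Genes of homologous recombination and fork repair were higher in 16 of 19 cases, with BRCA2 at 84.8 against 14.1 CPM, POLQ at 70.2 against 7.39 CPM and BLM at 51.4 against 6.9998 CPM. BRCA2 was at 139 CPM in the gated barcodes of the APOLD1 cluster and at 7.37 CPM (3 UMIs) in those of the RORB cluster.

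Inside the APOLD1 cluster, 17 of 127 mitosis list genes were higher in gated than in ungated barcodes, and none of 46 S phase genes was called. Its 308 gated and 401 ungated barcodes differed in few genes, with 46 higher (0.432% of those at 10 CPM or more) and 27 lower (0.254%). The 17 were 8 spindle, 5 kinase and cyclin and 4 centromere genes, with none from the condensin list. CCNB1 stood at 129 against 53.1 CPM, CDC20 (which starts anaphase) at 103 against 47.5 CPM, CENPA at 67.5 against 27.6 CPM, and ASPM at 882 against 424 CPM. The summed mitosis lists stood at 16395 CPM (16092 to 16702) against 11087 CPM (10871 to 11306). The summed S phase list stood at 2693 CPM (2572 to 2820) against 3006 CPM (2894 to 3121), so there the ungated barcodes held more.

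Inside the RORB cluster the 412 gated barcodes differed from the 926 ungated ones in 62 higher genes (0.627%) and 208 lower ones (2.1%). The 8 mitosis list genes among the higher were HMGB2, KIF11, KIF20B, KIF4A, NCAPD3, PLK4, RACGAP1 and SMC2. SMC2 stood at 798 against 351 CPM, and HMGB2 at 739 against 352 CPM. TYMS, which makes thymidylate, stood at 85.9 against 33.4 CPM. KCNQ1OT1, a nuclear RNA antisense to KCNQ1, was among the lower genes, with 137 against 582 CPM, and MALAT1 took 8.71% of UMIs against 14.99%. The 1165 RORB or NFIB positive barcodes of that cluster held 9227 CPM of the mitosis lists, between the 11026 CPM of the gated and the 7322 CPM of the ungated barcodes.

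Control genes of the cycle differed less. Of the DREAM, E2F and FOXM1 regulators, 7 of 17 were higher. FOXM1, which drives late genes, stood at 48.8 against 11.6 CPM, E2F7, a repressor of that family, at 39.4 against 7.06 CPM, and LIN9, of the DREAM and B-MYB core, at 41.1 against 6.55 CPM. LIN9 was higher in the RORB cluster (66.3 CPM) than in the APOLD1 cluster (29.4 CPM), and E2F7 the reverse (4.91 and 63.1 CPM). Of the CDK inhibitors, D cyclins and G1 kinases, 4 of 14 were higher, among them CDKN2C at 23.1 against 5.06 CPM and CDKN1B (p27) at 83.1 against 38.8 CPM. CDKN1A (p21) was not called, with 228 against 172 CPM, nor was CCND1, with 119.9 against 179 CPM. Of 20 p53 targets only BTG2 was called, higher with 110 against 49.4 CPM, and its level was 223 CPM in the RORB cluster and 45.5 CPM in the APOLD1 cluster. Of 7 replication-dependent histone genes at 10 CPM or more 4 were higher, but these are near copies of each other.

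APOLD1, a gene known from blood vessel lining, stood at 292 CPM (262 to 325) in all gated barcodes against 31.7 CPM (28.9 to 34.6). It was found in 188 gated barcodes, which held 16684 CPM of the mitosis lists, against 12104 CPM in the 611 without it. These barcodes also differed in median depth (2118 against 997 UMIs) and in MALAT1 (243986 against 133544 CPM), whose part in the result was not tested. Among the ungated barcodes 374 held APOLD1, with 7709 CPM, against 4131 CPM in the 8815 without it. The other 9 genes of the endothelial list summed to 49.7 CPM in the gated and 49.6 CPM in the other barcodes, with 5 of 9 at 0 in the gated barcodes. APOLD1 lies at chr12:12725917-12829975 (GRCh38, GENCODE 29). It overlaps DDX47, which was at 2.57 against 2.33 CPM, and follows CDKN1B.

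C21orf58, a gene of little known function named here after its values were seen, stood at 929 CPM (875 to 986) against 127 CPM (121 to 133). It was found in 75.9% of thinned gated barcodes of the APOLD1 cluster, 4.70% of those of the RORB cluster and 6.42% of the ungated barcodes of other clusters. It lies at chr21:46300181-46323875 on the minus strand, head to head with PCNT (a centrosome protein) on the plus strand, which stood at 63.4 against 25.02 CPM. The annotated ends of the pair do not overlap.

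Barcodes with more gate UMIs held more of the mitosis lists. The mitosis lists summed to 3803 CPM in the 6865 pool barcodes with 0 gate UMIs, 4829 CPM with 1, and 7899 CPM in the 490 ungated barcodes with 2 or more. In gated barcodes they summed to 10514 CPM with 2 gate UMIs, 11269 CPM with 3, 13427 CPM with 4 or 5 and 16828 CPM with 6 or more. APOLD1 did not follow evenly: it stood at 153 CPM in the ungated barcodes with 2 or more gate UMIs but at 64.1 CPM in gated barcodes with 2. MALAT1 was at 100472 CPM in the latter and 239411 CPM in the former. Depth moved with these values, and its part in them was not tested. The median depth was 873 UMIs in gated barcodes with 2 gate UMIs and 2390 UMIs in those with 6 or more. Among pool barcodes under 1006 UMIs the gated barcodes held 10736 CPM of the mitosis lists against 6122 CPM, and among the deepest, over 1967 UMIs, 16478 CPM against 3677 CPM.

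**Figure D4:**
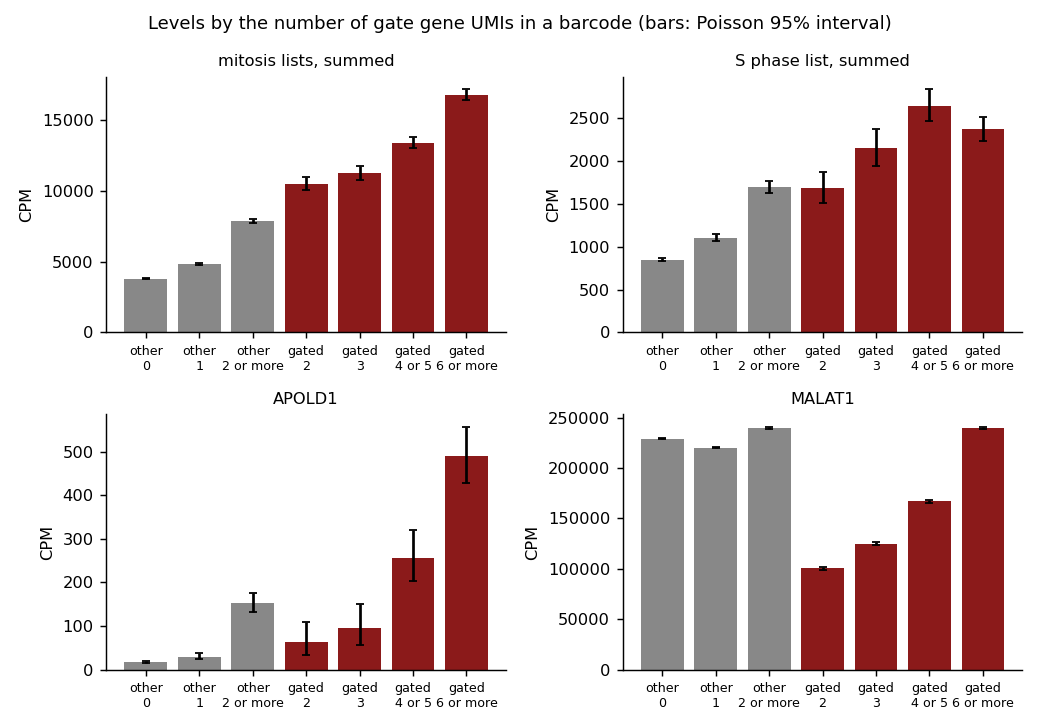
Bars give CPM for ungated (grey) and gated (red) day 3 barcodes by their number of gate UMIs, with Poisson intervals, on axes from 0. The mitosis lists climb from 3803 to 16828 CPM, while APOLD1 and MALAT1 drop between ungated barcodes with 2 or more gate UMIs and gated barcodes with 2.

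The fibroblast list summed to 14521 CPM in the gated and 14351 CPM in the other barcodes, but the clusters lay on either side. The sum was 12049 CPM (11790 to 12313) in the gated barcodes of the APOLD1 cluster and 17939 CPM (17530 to 18355) in those of the RORB cluster. A list of nuclear retained RNAs with MALAT1 summed to 252297 CPM in the first and 91369 CPM in the second. These RNAs are part of the total used for scaling, and their part in the difference was not tested. Over all gated barcodes 1 of 28 genes was called, PRRX1 (a mesenchyme factor), higher with 367 against 121 CPM. COL1A2, a collagen chain, stood at 2065 against 2441 CPM. PRRX1 belonged to the RORB cluster, with 879 CPM there and 89.5 CPM in the APOLD1 cluster, beside 81.5 CPM in the ungated barcodes of other clusters. Taken alone, the gated barcodes of the RORB cluster had 2 of 28 fibroblast genes higher and 3 lower. Against that cluster's own ungated barcodes, none of the 28 was called. None of 27 inflammatory and secretory genes and none of 15 contractile genes were called in either direction. Of 16 genes of the cAMP and CREB list 2 were called, RGS2 and KLF4, both higher. KLF4 stood at 219 CPM in the RORB cluster and 7.34 CPM in the APOLD1 cluster. Between gated and ungated barcodes of the RORB cluster, none of 16 genes of this list was called.

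Markers of other cell types differed by list. Of 7 pan-neuronal genes at 10 CPM or more, ANK3 and NCAM1 were higher and 1 was lower, and 9 of the 20 genes of the list were at 0 in the gated barcodes. ANK3 stood at 49.1 CPM in the RORB cluster and 4.40 CPM in the APOLD1 cluster. HES1, a Notch target of progenitors, was the 1 gene called of 3 neural progenitor genes at that level, with 540 CPM in the RORB cluster and 24.95 CPM in the APOLD1 cluster. The whole neural progenitor list summed to 2509 CPM (2358 to 2668) in the RORB cluster's gated barcodes, 1138 CPM (1059 to 1221) in the APOLD1 cluster's and 1411 CPM in the ungated barcodes of other clusters. Over all gated barcodes VIM alone gave 1467 of the list's 1696 CPM. VIM stood at 1378 CPM in the other barcodes and was not called, so these sums are not read as a progenitor programme. Within the RORB cluster the ungated barcodes held 2042 CPM and the RORB or NFIB positive ones 2075 CPM. Between gated and ungated barcodes of that cluster, none of 3 neural progenitor and none of 7 pan-neuronal genes was called. Of the 14 neural progenitor genes, 9 were at 0 in the gated barcodes. The epithelial list summed to 49.7 CPM against 63.8 CPM, with 7 of 12 genes at 0. The blood and pluripotency lists summed to 8.56 and 5.99 CPM in the gated barcodes, with 7 of 12 and 5 of 8 genes at 0.

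Lower genes were fewer and differed less. The lowest ratios among well measured genes were those of ARMC9, a protein of the cilium base (19.7 against 51.5 CPM), AHRR, a repressor of the aryl hydrocarbon receptor (23.1 against 56.3 CPM), NABP1 (35.97 against 76.2 CPM), PGPEP1 (33.4 against 70.1 CPM), the kinase MAPK10 (111 against 231 CPM) and AGO3 (156 against 324 CPM). MAPK10 and AGO3 were lowest in the RORB cluster, at 34.4 and 95.7 CPM, and stood at 147 and 188 CPM in the APOLD1 cluster. ARMC9 was at like levels in both, 17.2 and 22.0 CPM. The 6 mitochondrially encoded genes called were all lower, such as MT-CO2 with 442 against 1271 CPM. A cluster led by MT-ND3 and MT-CO2 held 7.18% of the other barcodes and 0.501% of the gated ones. All kept barcodes outside that cluster, gated ones included, held 457 CPM of MT-CO2, near the gated level.

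The same 7 gate genes were applied to the other libraries, each with its own top 8%. Day 0 gave 1188 gated barcodes with 472 genes higher (5.55%) and 43 lower (0.505%), and day 5 gave 737 with 251 higher (2.25%) and 430 lower (3.86%). No RORB or NFIB filter was applied there, and depth and preparation differ between libraries, so values are given side by side only. Mitosis list genes were higher in 116 of 125 cases at day 0, 111 of 124 at day 3 and 87 of 126 at day 5. S phase genes were higher in 46 of 49 cases at day 0, 30 of 43 at day 3 and 1 of 45 at day 5. HELLS stood at 134 against 37.4 CPM at day 0 and at 135 against 116 CPM at day 5. Of 711 higher day 3 genes in all tables, 299 were higher at day 0 (42.1%, and 63.5% of the 471 there) and 173 at day 5 (24.3%, and 71.2% of the 243 there).

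ASPM stood at 183 against 22.0 CPM at day 0 and 262 against 63.9 CPM at day 5. APOLD1 stood at 12.7 against 2.96 CPM at day 0 and 522 against 66.3 CPM at day 5. C21orf58 stood at 55.7 against 13.4 CPM at day 0 and 350.2 against 101 CPM at day 5. All were called higher in all 3 libraries. HMGB2 and H2AFZ were called at day 0 (344 against 65.2 CPM and 2007 against 622 CPM) and not at day 5 (87.4 against 48.0 CPM and 269 against 211 CPM).

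**Figure D5:**
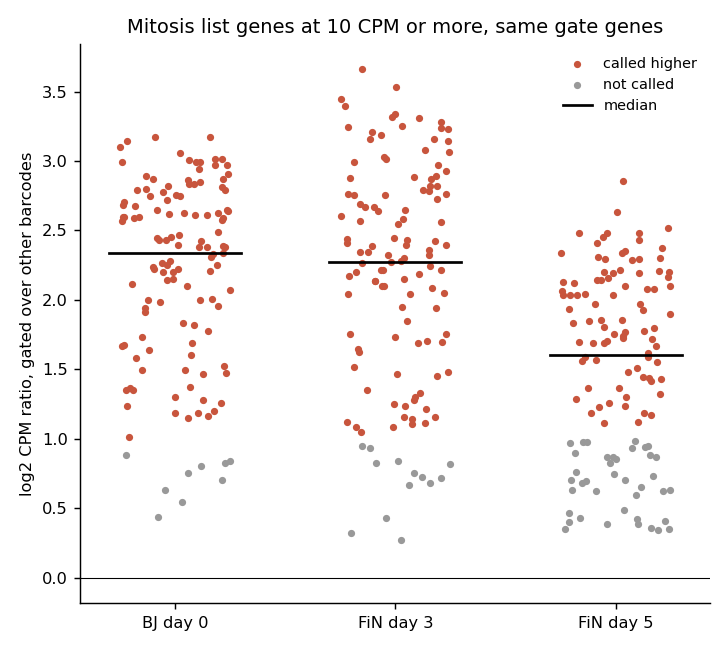
Points are mitosis list genes at 10 CPM or more in each library, with the log2 ratio of gated over other barcodes on the y axis; red points were called higher and black lines are medians. The medians are 2.34 at day 0, 2.27 at day 3 and 1.60 at day 5.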

How the data were processed

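The authors deposited raw UMI counts per gene and barcode, made with Cell Ranger 4.0.0 on GRCh38 per the submitters' processing notes. Per the labels' protocols, the kit named for days 0 and 3 is one for open chromatin in nuclei, although the files hold gene counts. UMIs were summed over barcodes and scaled to the total without gate genes (CPM). The 799 gated barcodes held 1171287 UMIs and the others 15432161. Clusters used scanpy 1.11.5 and igraph 0.11.9 (2000 variable genes, 30 components, 15 neighbours). TMM factors came from edgeR 4.0.16 in R 4.3.3 and served scaling only. At day 5, barcodes needed at least 2155 UMIs, a cut set from the deepest 10000 barcodes. Promoters matched by symbol, or by the current symbol of the same Ensembl ID, for 8347 of 10404 genes. Shares used a single start per gene, the first in the direction of transcription. The printed windows could come from any start of the gene. The comparison script was tested on simulated data. The members and gene lists were chosen with earlier results of these data known. Named genes were the 20 largest and 12 smallest ratios with separate intervals among genes at 50 CPM or more, up to 4 of each list, and fixed genes of the cycle. Genes named for cluster contrasts, promoters and neighbours were chosen after their values were seen. The names and levels of 2 list genes called lower are not reported here.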

Additional observations from a re-analysis of the deposited data

Results flagged for a closer look

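The genes below were called higher in the gated barcodes at day 3 and lower in those at day 5, under the same gate genes. The difference between the days was not tested, since each day is 1 library. No RORB or NFIB filter was applied at day 5. The log2 ratio of ANK3, which anchors proteins at the axon's start, was 2.20 at day 3 and -1.24 at day 5. That of the chloride transporter CLCN4 was 2.32 and -1.17, and that of the transcription factor EBF1 was 1.53 and -1.92. GRIA3, a glutamate receptor subunit, had 2.59 and -1.28, and KLF7 1.08 and -1.24. MYO18A had 1.30 and -1.35, and the adhesion protein PCDH9 had 2.06 and -1.68. At day 3 the level of GRIA3 was 63.8 CPM in the gated barcodes of the RORB cluster. ANK3 was higher in the gated barcodes of that cluster than in those of the APOLD1 cluster, as given above. For the other genes the APOLD1 cluster's levels are not given here, so the day 3 calls are not read as a trait of both clusters.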

How the results depend on the processing

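Over 85 values recomputed under other choices (other comparison barcodes, gates, filters, scalings and thresholds), 76 held within their limits and 9 moved. Mitosis list genes called higher ranged from 96 to 113, S phase genes from 22 to 32, and the summed mitosis ratio from 2.64 to 3.67. Genes called lower, 128 in the report, numbered 207 with the top 4%, 276 with the mean of per-barcode CPM, 221 with TMM factors, 212 with median-of-ratios factors, 229 with totals without MALAT1, mitochondrial and ribosomal protein genes, and 74 at 20 CPM or more. A fold of 1.5 gave 1339 higher and 440 lower. The median log2 ratio of mitosis genes was 0.98 with the mean of per-barcode CPM. A gate without TOP2A gave 637 higher and 94 lower, of which 381 and 18 were among the 713 and 128 of the report, and 21 of 48 named genes moved.

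Further alternatives were chosen after seeing the data. With gated barcodes of the RORB cluster alone, 1323 genes were higher and 1263 lower, the median log2 ratio of mitosis genes was 1.08, and 53 mitosis and 8 S phase genes were higher. The log2 ratio changed sign there for HJURP (-0.13), POLQ (-0.0046), APOLD1 (-2.11) and C21orf58 (-1.30). HJURP and POLQ entered at the floor of 3 UMIs (7.37 CPM) against 8.04 and 7.39 CPM, so their signs are not read. APOLD1, with 1 UMI, was set at that floor. With gated barcodes whose gate UMIs were all TOP2A, 1232 were higher and 1027 lower, the median was 1.18, and 62 mitosis and 10 S phase genes were higher. There NUSAP1 (-0.16) and C21orf58 (-0.16) changed sign. Without the RORB cluster, 665 were higher and 111 lower, of which 416 and 46 were among those of the report, and 21 of 48 named genes moved. With RORB and NFIB positive barcodes kept, 262 were lower. The causes were not tested. Leaving out a replicate was not possible with 1 library a group, and at 3 UMIs or fewer a level in the RORB cluster lies at or under 7.37 CPM.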
